A study of Homo sapiens with 2 samples.

Results

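This section describes the nuclear genes of oxidative phosphorylation in H6c7, an immortalised epithelial line from the human pancreatic duct, and in H6c7 cells that express an introduced K-ras oncogene. Members were the genes with a probe set annotated to exactly 1 gene symbol of the NDUF, SDH, UQCR, COX4 to COX8 or ATP5 series. The rule found 106 probe sets of 73 genes, of 11954 genes with 1 symbol on the array. Of these, 62 genes encode subunits of complexes I to V, namely 28 of complex I, 3 of complex II, 6 of complex III, 10 of complex IV and 15 of complex V. The other 11 were 5 complex I assembly factors, the muscle isoforms COX6A2 and COX7A1, the supercomplex factor COX7A2L, the ATP synthase inhibitor ATP5IF1, the antisense gene NDUFB2-AS1 and the pseudogene ATP5MC2P1. A further 9 probe sets carry a symbol of these series beside another gene's symbol and were left out. The subunits NDUFS8, SDHB and UQCRFS1 and those encoded by mitochondrial DNA were not analysed here.

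Oxidative phosphorylation passes electrons from NADH and succinate through complexes I to IV to oxygen and uses the proton gradient so formed to drive ATP synthase, which is complex V. The catalytic core of each complex descends from bacterial enzymes, and mammals have added many accessory subunits that stabilise the complex or help to assemble it. Apart from the few core subunits made inside the mitochondrion, all are encoded in the nucleus, and subunits of a complex are needed in fixed proportions.

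The promoters of the subunits with the highest and the lowest ratio among those holding each of 2 motifs, and of the partner genes UQCRC1 and UQCRC2, are shown because subunit genes are known targets of the transcription factor NRF1 and of ETS factors such as GABP. The sequences are from RefSeq (GRCh38.p14), read 5′ to 3′ on the strand of the gene, each 120 bases long and ending upstream of the annotated start. Capitals mark the letters GCGCATGCG (NRF1) or CCGGAAG (ETS), searched on both strands.
ATP5ME, chr4:674295-674414, minus strand, NRF1 match: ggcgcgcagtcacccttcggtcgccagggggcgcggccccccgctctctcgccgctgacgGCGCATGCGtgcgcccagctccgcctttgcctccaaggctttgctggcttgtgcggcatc
ATP5F1C, chr10:7788057-7788176, plus strand, 2 overlapping NRF1 matches: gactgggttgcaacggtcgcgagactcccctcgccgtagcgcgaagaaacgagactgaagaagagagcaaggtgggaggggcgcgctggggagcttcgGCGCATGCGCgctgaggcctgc
NDUFB7, chr19:14572067-14572186, minus strand, ETS match: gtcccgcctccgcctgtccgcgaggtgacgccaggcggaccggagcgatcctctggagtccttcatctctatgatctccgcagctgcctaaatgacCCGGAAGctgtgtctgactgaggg
NDUFS1, chr2:206159542-206159661, minus strand, ETS match: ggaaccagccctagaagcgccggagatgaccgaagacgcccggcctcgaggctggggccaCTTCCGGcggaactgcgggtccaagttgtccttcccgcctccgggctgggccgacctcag
UQCRC1, chr3:48609647-48609766, minus strand, no match: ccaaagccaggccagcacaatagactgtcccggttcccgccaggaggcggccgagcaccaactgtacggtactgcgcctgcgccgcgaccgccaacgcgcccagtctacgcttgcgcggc
UQCRC2, chr16:21953241-21953360, plus strand, no match: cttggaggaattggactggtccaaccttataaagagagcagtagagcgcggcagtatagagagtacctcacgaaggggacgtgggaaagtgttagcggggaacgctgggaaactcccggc

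RNA of each line was hybridised to 1 Affymetrix expression array, so values have no replicate error and differences were not testable. Whether the K-ras cells were a clone or a pool is not stated in the labels, which name no vector control. Values are signals on a linear scale, and the ratio is always that of the K-ras over the parental array. The floor was a signal of 46.9, the higher of the 2 array medians. A gene below it on both arrays was called not measured, and a ratio against an array below it is a bound. The duct epithelial markers KRT7, KRT8, KRT18, KRT19, EPCAM and CDH1 were above the floor on both arrays, with signals of 477 to 8606. Their levels were not all alike in the 2 lines. KRT19 went from 4511 to 1644, EPCAM from 994 to 477, KRT7 from 3075 to 2466 and CDH1 from 1515 to 1487. KRT8 and KRT18 were higher in the K-ras line, from 1111 to 2044 and from 6622 to 8606. The islet genes INS and GCG and the leukocyte genes PTPRC and CD14 were below it on both, and summed signals of the acinar, fibroblast, endothelial and muscle lists were 33.6 to 186. Of their 10 genes on the array, 1 was above the floor in the parental line (COL1A1, 131) and 5 in the K-ras line, at up to 94.6. Their part in the ratios was not tested. In such bulk RNA, fewer cells with a transcript and less transcript per cell cannot be told apart.

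Most subunit transcripts differed little between the lines. All 62 subunits were measured, and 61 of them reached the floor in each line. Of the 62, 3 were at least 2-fold higher in the K-ras line (UQCRC1, NDUFV1 and NDUFB7), 3 at least 2-fold lower (NDUFA5, NDUFS1 and NDUFB3), and 56 within 2-fold. That is 9.68% past 2-fold, against 24.4% of all 7691 measured genes, of which 9.97% were higher and 14.4% lower. Subunit signals were high, so a second background is the 1699 genes with a geometric mean signal of at least 375, of which 23.8% passed 2-fold. Of the 57 members in that range, 3 did, or 5.26%. The median log2 ratio was 0.15 over the subunits and 0.10 over all measured genes, and the quartiles were -0.34 and 0.44 against -0.55 and 0.57.

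**Figure D1:**
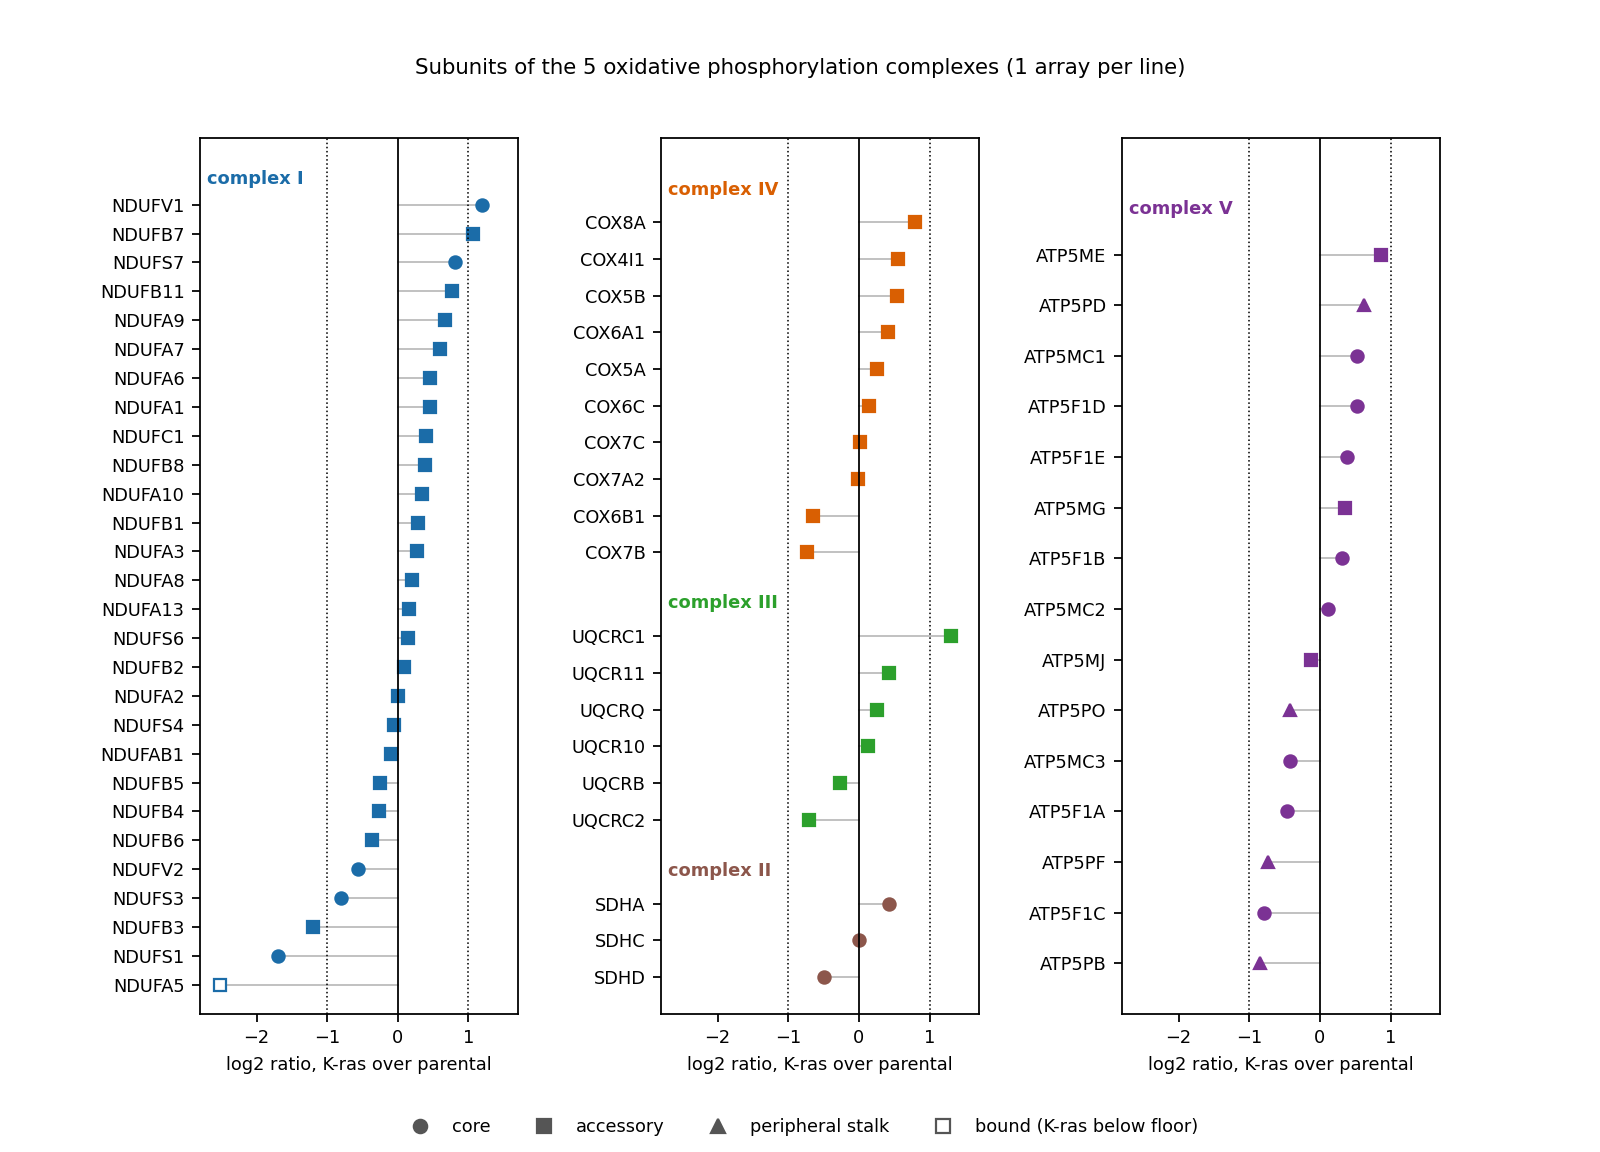
Log2 ratio of the K-ras over the parental signal for each of the 62 subunits, by complex, with 1 array per line and no error bars. Circles are core, squares accessory and triangles peripheral stalk subunits, the open square is a bound, and dotted lines mark 2-fold. Complex I holds 5 of the 6 subunits past 2-fold, and the subunits of complexes II, IV and V all lie between the lines.

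**Figure D2:**
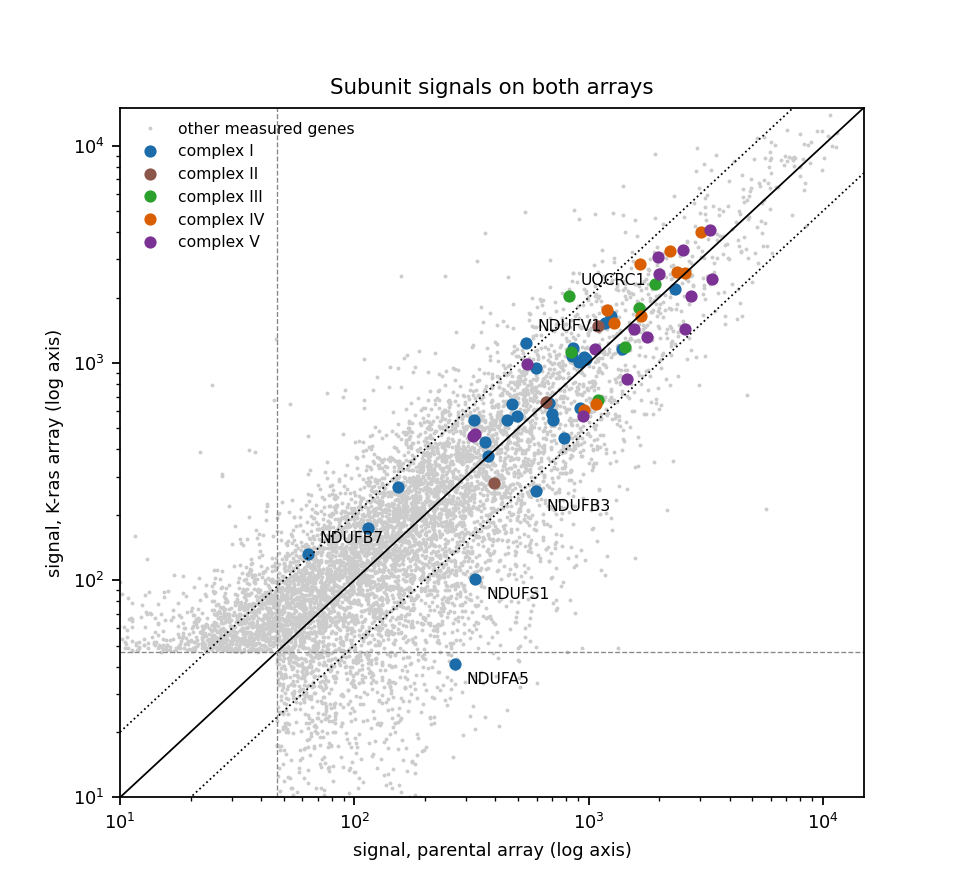
Signal of each subunit on the parental array (horizontal) and on the K-ras array (vertical), both on log axes, with other measured genes in grey and genes under a signal of 10 outside the frame. The solid line marks equal signals, dotted lines 2-fold and dashed lines the floor of 46.9, and NDUFA5 is the one subunit below the floor on an array.

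Complex I, which oxidises NADH, held 5 of the 6 subunits past 2-fold, and they went both ways. They were 17.9% of its 28 subunits, a smaller share than the 24.4% of all measured genes. Of all 7691 measured genes, 4238 had ratios above and 3450 below equality, with a median log2 ratio of 0.10. Of the 28 complex I subunits, 17 had ratios above and 11 below equality, with a median log2 ratio of 0.18. Its 5 measured core subunits lay far apart. NDUFV1, the flavoprotein that binds NADH, had a signal of 543 in the parental and 1242 in the K-ras line, 2.29-fold higher. NDUFV2, an iron-sulfur protein that sits against NDUFV1, went from 923 to 622, a log2 ratio of -0.57. NDUFS1, which carries the iron-sulfur clusters next in the chain, went from 329 to 101, 3.24-fold lower. These 3 proteins together form the tip of the complex that takes up electrons, and their transcripts thus ranged over 2.89 on the log2 scale. NDUFS3 and NDUFS7, core subunits close to the quinone site, went from 787 to 450 and from 153 to 268, log2 ratios of -0.81 and 0.81. Each of these 5 genes rests on 1 probe set.

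The 23 accessory subunits of complex I were for the most part slightly higher in the K-ras line. Their median log2 ratio was 0.20, with 15 above and 8 below equality. Of the 23, 3 passed 2-fold (13.0%, against 24.4% of all measured genes). NDUFA5, a subunit of the matrix arm, went from 269 to 41.1, the latter under the floor, so that it was at least 5.73-fold lower, a log2 bound of -2.52 that became -1.14 with a floor at the 70th percentile. NDUFB3, of the membrane arm, went from 595 to 258, 2.30-fold lower. NDUFB7, also of the membrane arm, went from 63.4 to 132, 2.08-fold higher. Its parental signal lies close to the floor, and its log2 ratio of 1.06 was 0.70 with the floor as a pseudocount, 0.96 after median centring and 0.11 with a floor raised to the 70th percentile. The NDUFA and NDUFB series each held both directions. Among 10 NDUFA subunits the median was 0.30, and next to NDUFA5 the others lay between 0.00 and the 0.67 of NDUFA9. Among 9 NDUFB subunits the median was 0.09, with NDUFB11 at 0.76, NDUFB8 at 0.38 and NDUFB6, NDUFB4 and NDUFB5 at -0.36, -0.26 and -0.25. NDUFS4 and NDUFS6, accessory subunits near the NADH site, and NDUFAB1, the mitochondrial acyl carrier protein, had log2 ratios of -0.06, 0.15 and -0.10.

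Of the 5 complex I assembly factors, NDUFAF5 and NDUFAF7 were below the floor on both arrays. NDUFAF1, which joins membrane arm intermediates, went from 346 to 167, 2.07-fold lower. NDUFAF4 went from 376 to 214, and NDUFAF3, its known partner, from 237 to 299, log2 ratios of -0.81 and 0.34. The place of NDUFAF1 past 2-fold did not hold with quantile normalization (-0.98), maintenance probe set scaling (-0.96) or the floor as a pseudocount (-0.88).

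Complex II, succinate dehydrogenase, differed little. Its flavoprotein SDHA, which oxidises succinate, went from 1094 to 1476 on an _x_at probe set, of the kind that can pick up related transcripts, a log2 ratio of 0.43. The membrane anchors SDHC and SDHD, which bind ubiquinone, went from 659 to 659 and from 395 to 281, log2 ratios of 0.00 and -0.49. The 4 SDHC probe sets gave log2 ratios from -0.14 to 0.28.

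Complex III, which passes electrons from ubiquinol to cytochrome c, showed its widest difference between the partners UQCRC1 and UQCRC2. These large matrix proteins, named core proteins although they carry no electrons, are present in the complex in equal numbers. UQCRC1 went from 827 to 2029, 2.45-fold higher and the highest ratio of any subunit. UQCRC2 went from 1102 to 676, a log2 ratio of -0.70, with -0.49 in its other probe set. The partners thus went in opposite directions, with a wider difference than any other pair of complex III genes the rule found. The small subunits UQCR11, UQCRQ and UQCR10 had log2 ratios of 0.42, 0.26 and 0.13. UQCRB, which helps to form the quinone site, had -0.26 in the probe set used and -0.13 and 0.32 in its others, so its direction is not settled.

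A haem protein of complex III and the carrier it feeds are named outside the rule's series, and they also went opposite ways. CYC1, cytochrome c1, had a signal of 491 in the parental and 1077 in the K-ras line, 2.20-fold higher. With the trend of the ratio with gene span removed, described further on, CYC1 was within 2-fold, at 0.75 on the log2 scale. CYCS, cytochrome c, the soluble carrier to complex IV, went from 2744 to 1143, 2.40-fold lower.

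Most transcripts of complex IV, cytochrome c oxidase, were slightly higher in the K-ras line. The catalytic subunits are made in the mitochondrion, so the 10 nuclear subunits that the rule found are all accessory. Of all 7691 measured genes, 4238 had ratios above and 3450 below equality, with a median log2 ratio of 0.10. Of the 10 complex IV subunits, 7 had ratios above and 3 below equality, none passed 2-fold, and the median log2 ratio was 0.19. COX8A was the highest, going from 1657 to 2856, a log2 ratio of 0.79. COX4I1, which binds ATP as a regulator of the enzyme, went from 2227 to 3264, and COX5B from 1203 to 1748. All probe sets of COX4I1 and COX5B above the floor on both arrays gave log2 ratios of 0.54 to 0.84. COX6A1 had a log2 ratio of 0.41, COX5A 0.25 and COX6C 0.14. COX7C and COX7A2 were almost equal on both arrays, at 0.02 and -0.01. COX7B went from 1078 to 650 and COX6B1, which faces cytochrome c, from 957 to 609, log2 ratios of -0.73 and -0.65. The heart and muscle isoform COX7A1 was below the floor on both arrays, as were NDUFB2-AS1 and ATP5MC2P1, and COX6A2 went from 38.4, below the floor, to 68.8. COX7A2L, which joins complexes III and IV, went from 915 to 1451, a log2 ratio of 0.66.

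In ATP synthase, 8 of 15 subunits had ratios above and 7 below equality, and none passed 2-fold. In the F1 head, where ATP is made, the alternating subunits alpha (ATP5F1A) and beta (ATP5F1B) went from 3353 to 2443 and from 3309 to 4106, log2 ratios of -0.46 and 0.31. Of the central stalk that turns inside the head, gamma (ATP5F1C) went from 1455 to 843, and its 3 probe sets above the floor gave -0.79 to -0.60. Delta (ATP5F1D) and epsilon (ATP5F1E) had log2 ratios of 0.52 and 0.38, though a second ATP5F1D probe set gave -0.17. The genes ATP5MC1, ATP5MC2 and ATP5MC3 encode the same ring subunit c, through which protons pass, and had log2 ratios of 0.52, 0.12 and -0.43. The peripheral stalk, which holds the head still, had the lowest median within the complex, at -0.58 over 4 genes. ATP5PB, its main rod, went from 2591 to 1435, ATP5PF from 947 to 571 and ATP5PO, which ties the rod to the head, from 1778 to 1321. ATP5PD of the same stalk went the other way, from 1982 to 3063, a log2 ratio of 0.63. Of the membrane subunits that help to pair the enzymes, ATP5ME was the highest of the complex, from 546 to 987 on an _x_at probe set, a log2 ratio of 0.86. ATP5MG and ATP5MJ had 0.36 and -0.12, but their other probe sets reached -0.46 and 0.54, across equality. The inhibitor ATP5IF1, which blocks ATP breakdown by the enzyme, went from 351 to 514, a log2 ratio of 0.55.

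**Figure D3:**
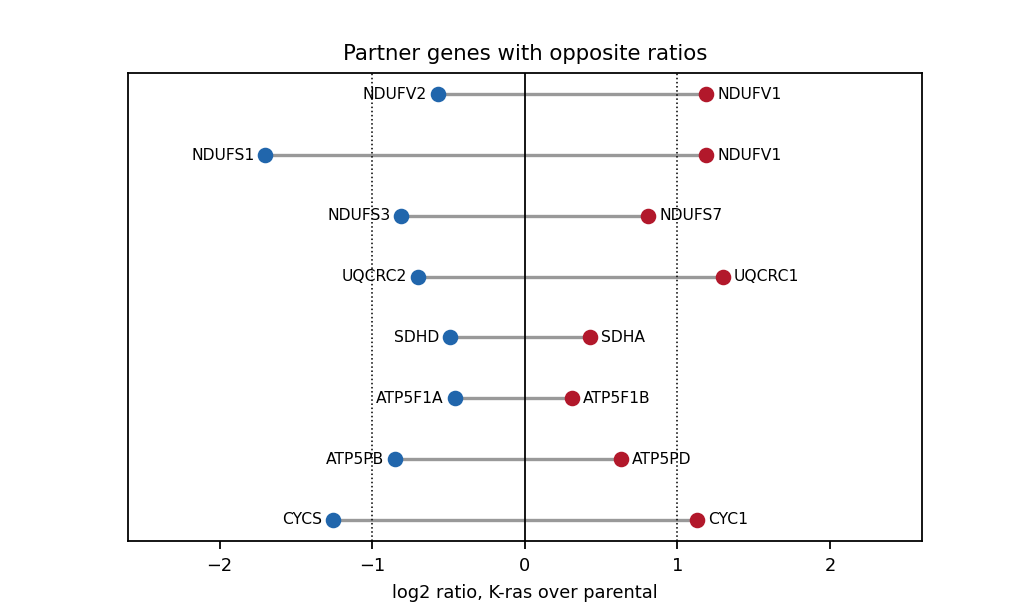
Log2 ratios of 8 pairs of genes of the same complex or, for CYC1 and CYCS, of complex III and the carrier it feeds. The higher partner is in red and the lower in blue, with dotted lines at 2-fold and 1 array per line. The pairs were picked after their values were seen because they differ, and NDUFV1 with NDUFS1 is the widest, from 1.19 to -1.70.

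Core and accessory subunits were compared over all complexes and within complexes I and V, the ones in which the rule found both kinds. Over all, the median log2 ratio was 0.06 for 16 core and 0.18 for 46 accessory subunits, the peripheral stalk counted as accessory. The difference of -0.12 was -0.44 with the stalk as core and 0.04 with the span trend removed. In complex I it was -0.57 for 5 core against 0.20 for 23 accessory subunits, a difference of -0.77. With 2 of those 5 core genes above and 3 below equality, ranging from -1.70 to 1.19, the core median follows 1 gene, NDUFV2. In complex V it was 0.22 for 8 core against -0.12 for 7 accessory subunits, a difference of 0.34 that became -0.51 with the stalk counted as core. With the stalk as accessory, it was -0.06 with the median over probe sets and 0.78 without _x_at and _s_at probe sets, so its direction is not settled.

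The complexes themselves had similar medians, 0.18, 0.00, 0.19, 0.19 and 0.12 for complexes I to V. Under the 5 other scalings the medians of complexes I, III, IV and V kept above 0, between 0.02 and 0.29, and that of complex II lay between -0.10 and 0.09. The median of all measured genes lay between 0.01 and 0.17 under the same scalings. With the span trend removed the same 4 medians were -0.05, -0.19, -0.01 and -0.05, below 0, and that of complex II was 0.11. The quartiles were -0.26 and 0.45 in complex I, -0.25 and 0.22 in II, -0.16 and 0.38 in III, -0.01 and 0.51 in IV and -0.44 and 0.45 in V, over 3 to 28 genes each.

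The ratios of the subunits went with the genomic span of their genes. Of 13 subunit genes spanning up to 5 kb, 12 had ratios above equality, with a median log2 ratio of 0.45. The median was 0.34 over 18 genes of 5 to 10 kb, 0.05 over 18 genes of 10 to 20 kb and -0.25 over 13 longer genes, of which 8 were below equality. Spearman's rho between span and log2 ratio was -0.42 over the 62 subunits, -0.39 over the 28 of complex I and -0.76 over the 15 of complex V. These are descriptions across genes of the same 2 arrays. All measured genes showed the same order with a rho of -0.24 over 7691 genes, and medians of 0.41, 0.28, 0.26 and -0.07 in the same bins. Among the 728 measured genes of up to 5 kb, 554 had ratios above equality. With the smooth trend over all genes removed, a step added after the data were seen, 1 subunit was past 2-fold higher (UQCRC1, 1.04) and 6 lower, or 11.3%, against 23.5% of all measured genes. The 6 were NDUFA5 (-2.35), NDUFS1 (-1.60), NDUFB3 (-1.42), NDUFS3 (-1.13), ATP5PB (-1.08) and COX7B, which was at the threshold, while NDUFV1 and NDUFB7 were at 0.87 and 0.74. Control probe sets at the ends of GAPDH had 3′ to 5′ signal ratios of 0.817 in the parental and 0.888 in the K-ras line, and those of beta-actin 1.28 and 1.10. Whether RNA quality had a part in the relation with span was not tested.

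**Figure D4:**
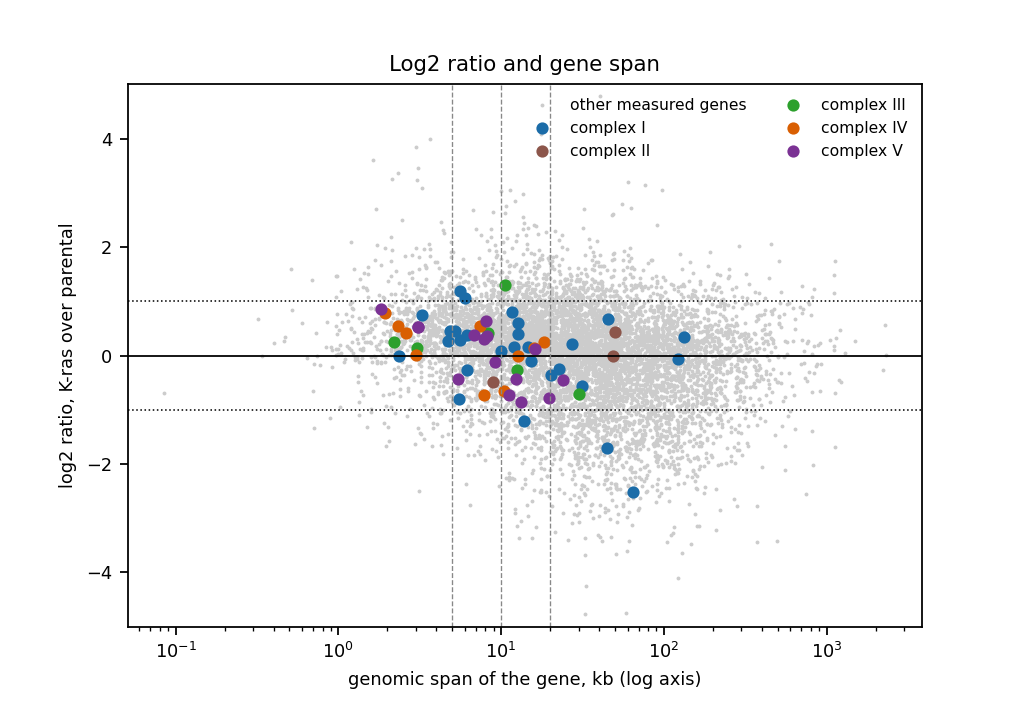
Log2 ratio of each subunit against the genomic span of its gene in kb on a log axis, with other measured genes in grey, dotted lines at 2-fold and dashed lines at 5, 10 and 20 kb. Subunit genes of up to 5 kb lie mostly above equality and those over 20 kb mostly below, with NDUFS1 and NDUFA5 the lowest.

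The promoter motifs were present in members of both directions. RefSeq's table held promoters of 55 of the 62 subunits. The NRF1 letters stood within 250 bases upstream of the start in 9 of them (16.4%), against 1.78% of all 27305 promoters of the same length and 3.28% of the 6376 of measured genes. Their log2 ratios ran from -0.79 (ATP5F1C) to 0.86 (ATP5ME), the pair printed above, with a median of 0.12 against 0.25 in the 46 subunits without these letters. The ETS letters stood in 14 (25.5%), against 8.82% and 15.8%, with log2 ratios from -1.70 (NDUFS1) to 1.06 (NDUFB7) and a median of 0.33 against 0.15 without. The partners UQCRC1 and UQCRC2 held neither, and their 250 bases upstream were 67.2% and 48.4% G and C. Over the whole promoter sequence in RefSeq's table, rather than those 250 bases, the partners had 67.3% and 49.3%. With G and C content taken in that way, its Spearman's rho with the log2 ratio was 0.35 over the subunits (55 genes) and 0.08 over all measured genes.

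Probe sets of 1 gene give the one repeated measurement in these data, and it is technical. Several probe sets reached the floor on each array for 16 of the members. Within a gene, their log2 ratios had a pooled standard deviation of 0.261 over these 16, against 0.457 over 1671 genes of the array. In 11 of the 16 no probe set crossed equality. In 5 it did, namely ATP5F1D, ATP5MG, ATP5MJ, SDHC and UQCRB, whose direction is therefore not settled. None of the 6 subunits past 2-fold had a second such probe set.

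**Figure D5:**
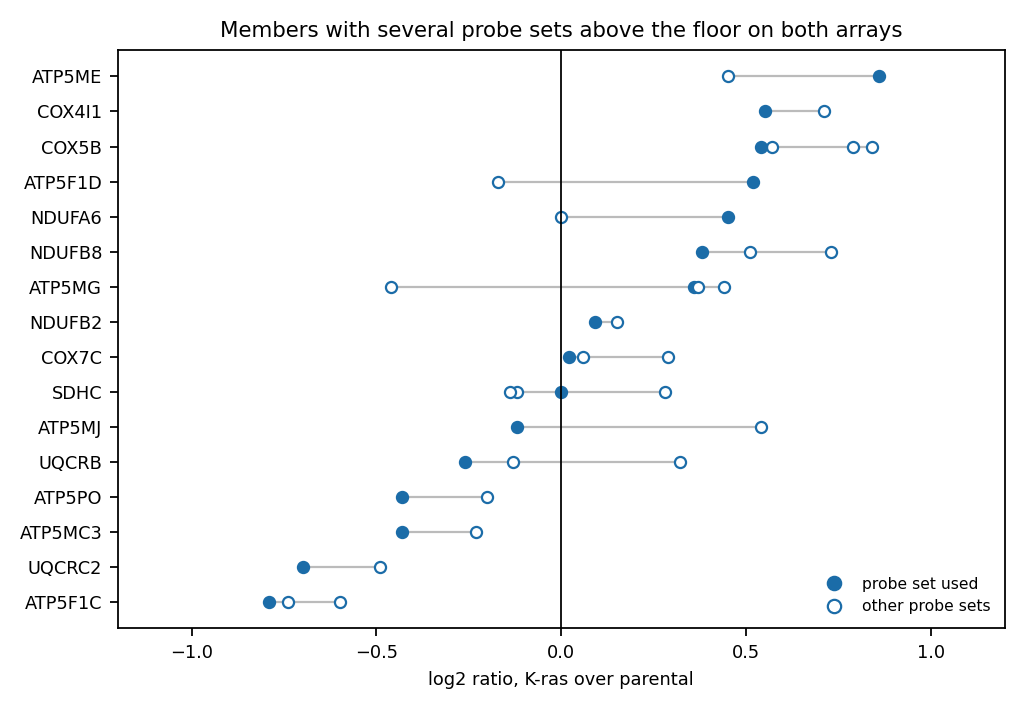
Log2 ratio of every probe set that reached the floor in each line, for the 16 members with several, filled for the probe set used and open for the others. Probe sets of UQCRC2, ATP5F1C and COX5B lie on 1 side of equality, and those of ATP5MG range from -0.46 to 0.44.

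Other genes of the pathway were given by 5 lists. Of the 8 measured electron carriers and feeders, 1 was at least 2-fold higher and 3 lower, CYC1 and CYCS among them. That is 50.0%, against 24.4% of all measured genes. The list median was 0.09, with 4 above and 4 below equality, and it went below 0 under several settings given further on. The electron transfer flavoprotein subunits ETFA and ETFB, which bring in electrons from fatty acid oxidation, went from 771 to 385 and from 225 to 105, 2-fold and 2.14-fold lower. ETFA, at the threshold, was at -0.91 to -0.96 on the log2 scale with quantile normalization, maintenance scaling or the pseudocount. With the span trend removed it was at -0.78. ETFB was at -0.84 with the pseudocount, and its bound was -0.89 with the floor at the 70th percentile. SQOR, which oxidises sulfide, had a log2 ratio of 0.90. Of 10 measured genes of coenzyme Q synthesis, 1 passed 2-fold, PDSS1, which starts the side chain, 2.26-fold lower, with a list median of 0.19. PDSS1 was at -0.83 on the log2 scale with the floor as a pseudocount, and with the floor raised to the 70th percentile its bound was -0.48. Of 7 carriers and pores 1 passed (14.3%), VDAC3, a channel of the outer membrane, 2.82-fold lower, with a list median of 0.03. Its other probe sets gave -1.66 and -0.80 on the log2 scale. The ADP/ATP carrier SLC25A5 and the phosphate carrier SLC25A3, which supply ATP synthase, had log2 ratios of 0.05 and 0.03.

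Of 24 measured assembly factors outside the rule's series, 4 were past 2-fold (16.7%), all in the lower direction, against 14.4% of all measured genes in that direction, and the median log2 ratio was -0.07. LRPPRC, which stabilises mitochondrial messenger RNAs, went from 726 to 72.9, 9.96-fold lower. TMEM126B, of complex I assembly, was 3.79-fold lower, FASTKD2, a mitochondrial RNA-binding protein, 3.03-fold, and OXA1L, which inserts subunits into the inner membrane, 2.04-fold. OXA1L was at -0.89 to -0.96 on the log2 scale with the pseudocount, maintenance scaling or quantile normalization. Of 16 measured genes of mitochondrial gene expression and its regulators, 2 were at least 2-fold higher and 3 lower (31.2%, against 24.4% of all measured genes), with a median of -0.36. That median was -0.16 with the median over probe sets and 0.02 without _x_at and _s_at probe sets. TFAM, which packs mitochondrial DNA and starts its transcription, went from 233 to 62.5 on an _x_at probe set, 3.73-fold lower, with a log2 ratio of -1.43 in another. TEFM, the elongation factor, was 3.41-fold lower and MTERF3 3.25-fold, both with K-ras signals (47.2 and 74.5) close to the floor. With the raised floor TFAM, TEFM and MTERF3 had bounds of -0.94, -0.40 and -0.99 on the log2 scale, short of 2-fold. The polymerase POLRMT went from 224 to 487, 2.18-fold higher, and the nuclear receptor ESRRA, a known regulator of subunit genes, from 165 to 480, 2.90-fold higher, with 1.08 on the log2 scale in its other probe set. POLRMT was within 2-fold with the pseudocount (0.98) and with the span trend removed (0.95). NRF1 itself had a log2 ratio of 0.61.

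Mitochondrial ribosomal proteins and proteasome subunits are likewise nuclear genes for large complexes. Of 49 measured mitochondrial ribosomal protein genes, 9 passed 2-fold (18.4%), 2 up and 7 down, and the median log2 ratio was -0.04. Of 41 proteasome genes, 12 passed 2-fold (29.3%), all down, and the median was -0.33. The 9.68% of the oxidative phosphorylation subunits was lower than both shares, but with 1 array per line that difference was not tested.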

How the data were processed

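The deposited values are linear signal intensities of 22283 probe sets, 68 of them controls, in 1 column for each line. Per the labels, RNA was extracted with phenol and chloroform, column-purified and made into cRNA. The software behind the authors' intensities was not given in the sources used here. Means trimmed by 2% at each end were 150.06 in both columns, so the columns share 1 scale.

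Probe sets were named by the platform annotation (19065 with 1 symbol, 1043 with several), and 19053 matched GRCh38.p14 gene numbers. Each gene is its probe set with the highest mean log2 signal. No test was possible. Members, lists and motifs were chosen with earlier results of these data known. Genes named are core subunits, those past 2-fold, and the extremes of each complex and list. Others were named after their values were seen.

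The alternatives were 11 settings of scaling, floor and probe set, thresholds of 1.5-fold and 3-fold, and other memberships. The procedure was tested on simulated data. Python 3.11.15, numpy 2.4.6, pandas 2.3.3, statsmodels 0.14.6 and matplotlib 3.10.9 were used.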

Additional observations from a re-analysis of the deposited data

How the results depend on the processing

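Each line has 1 array in the data used here, so the values have no replicate error, and signals near the floor carry the least information. No paired analysis was possible because there is 1 array per line. The planned move of NDUFA4 to complex I was not run, since no member carried that symbol. No value reversed past the threshold. Over the 11 settings of scaling, floor and probe set, 8.06% to 9.68% of subunits passed 2-fold, against 17.0% to 35.3% of all genes. Changes larger than the probe set spread over the genes averaged were the following, as medians of the log2 ratio. With maintenance scaling they were 0.25 for all subunits, 0.28 for complex I and 0.04 for assembly factors, and with median centring 0.06 for all subunits and 0.08 for complex I. Without _x_at and _s_at probe sets, they were -0.49 for complex II (1 gene), 0.31 for complex V, 0.34 for assembly factors and 0.02 for regulators of mitochondrial gene expression, and 1 subunit was lower, with fewer genes left. At 1.5-fold 10 subunits were higher and 10 lower (32.3%, against 48.2% of all genes), and at 3-fold 0 were higher and 2 lower (3.23%, against 8.65%). Core minus accessory with the stalk as core was -0.44 over all complexes and -0.51 in complex V, which was -0.06 with the median over probe sets and 0.78 without _x_at and _s_at probe sets. Electron carriers and feeders, at 0.09 as first processed, had -0.92 with the floor at the 30th percentile or none and -0.89 at the 70th. They had -0.33 with loess and -0.24 both with the median over probe sets and after leaving out _x_at and _s_at ones. The direction of this list is thus not settled. Regulators had -0.16 with the median over probe sets. The cause was not tested. With the span trend removed, chosen after the data were seen, the median was -0.05 for all subunits and for complexes I and V, -0.19 for III and -0.01 for IV, and core minus accessory over all was 0.04. Carriers and pores had -0.20, assembly factors 0.04 and regulators -0.24, and 1 subunit was higher and 6 lower. Of the 6 subunits past 2-fold, NDUFV1 lost that place with the span trend removed and NDUFB7 under 4 settings. UQCRC1 kept it under 12 settings, and NDUFA5, NDUFS1 and NDUFB3 under the 11 that gave them a value.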
